A study of Mus musculus with 4 samples.

Results

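Aminoacyl-tRNA synthetases are the enzymes that join each amino acid to its transfer RNA. Their 36 genes named here, 20 for the cytosolic and 16 for the mitochondrial enzymes, were followed by RNA sequencing of isolated pancreatic islets. They were taken by symbol from a table of 23235 gene symbols, and each had a usable value in every library. The 4 groups were islets of refed KR mutant, fasted KR mutant, refed wild type (WT) and fasted WT mice, all on the C57BL/6 strain, with 1 library per group. The KR allele is known to change the gene of FoxO1, a transcription factor of the insulin pathway: lysines that can be acetylated were exchanged for arginine, which leaves the protein as if deacetylated. The series title places the work on FoxO1 deacetylation in beta cells, and the design crosses feeding state with genotype. All mice had fasted, for 48 h by the sample titles and 24 h by the extraction protocol, and the refed mice then ate for 6 h. Islets of 3 mice per genotype were pooled before RNA isolation, so there is no biological replicate in any group, and a ratio of 2 libraries comes without a check by replicates.

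The cytosolic enzymes charge transfer RNAs for the ribosomes that read nuclear messages, and the mitochondrial enzymes, encoded in the nucleus and imported, do so for the small set of proteins made inside mitochondria. The charging state of transfer RNA is also a nutrient signal: uncharged transfer RNA activates the kinase GCN2, which raises translation of the transcription factor ATF4. ATF4 is known to induce many cytosolic synthetase genes, together with genes of amino acid synthesis and transport, through a composite C/EBP-ATF site. In the beta cell, which translates very large amounts of proinsulin, this pathway overlaps with the response to stress in the endoplasmic reticulum.

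Because the site of ATF4 has a known core, the letters TGATGNAA were looked for on both strands of the RefSeq promoter windows (build GRCm38.p6), each from 250 bases before to 50 bases after an annotated start. Windows were found for 27 of the 36 genes, and none for Cars, Hars, Lars, Nars, Rars, Vars, Wars, Hars2 and Pars2. The letters stood in 5 of the 27, all cytosolic, namely Aars, Gars, Iars, Tars and Yars, and in 3.97% of all 32851 windows of the table. Of the 14 mitochondrial genes with a window 0 held them. A match is a description of the sequence and not a tested site, and the absence of a match says only that these letters are not in the window. The 5 stretches are printed because all 5 genes were lower after refeeding. Of the genes with a window, 5 of 12 that fell held the letters, 0 of 6 that rose and 0 of 9 that did not pass. Mars, Eprs, Sars, Aars2, Nars2, Tars2 and Vars2 fell with no match in their windows. Cars, Lars, Nars, Vars and Wars fell too, but have no window to search. A link between the letters and the refeeding change was not tested. All matches were cytosolic, so these pooled counts mix it with a difference between cytosolic and mitochondrial genes. Among cytosolic genes with a window, Dars, Kars and Qars rose, and Farsa and Farsb did not pass, all without a match. Eprs, Mars and Sars, also cytosolic, fell without one. Capitals mark the matches, the rest is in lower case, and each line runs 5′ to 3′ on the gene's strand.
Yars, chr4:129189846-129189932, plus strand: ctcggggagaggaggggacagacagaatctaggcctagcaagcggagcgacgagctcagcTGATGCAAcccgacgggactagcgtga
Iars, chr13:49682077-49682159, plus strand: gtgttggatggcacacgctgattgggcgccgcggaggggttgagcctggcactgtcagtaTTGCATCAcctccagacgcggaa
Aars, chr8:111033670-111033871, plus strand: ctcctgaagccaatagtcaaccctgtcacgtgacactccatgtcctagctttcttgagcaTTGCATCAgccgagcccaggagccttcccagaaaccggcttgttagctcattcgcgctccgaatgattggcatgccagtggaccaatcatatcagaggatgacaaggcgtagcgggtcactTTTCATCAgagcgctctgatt
Gars, chr6:55037911-55038030, plus strand: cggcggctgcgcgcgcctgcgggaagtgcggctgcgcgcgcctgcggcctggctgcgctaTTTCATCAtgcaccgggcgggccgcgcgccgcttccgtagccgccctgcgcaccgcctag
Tars, chr15:11399629-11399733, minus strand: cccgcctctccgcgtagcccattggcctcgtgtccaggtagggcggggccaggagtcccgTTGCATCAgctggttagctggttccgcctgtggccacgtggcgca
Counted from the annotated start, with upstream bases negative, the first base of the match lay at 3 in Yars, 7 in Iars, -112 and 9 in Aars, -30 in Gars and -15 in Tars. The form TTGCATCA, or its reverse complement TGATGCAA, was found in Yars, Iars, Aars and Tars, whereas Gars and the second match of Aars held TTTCATCA.

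The deposited values are FPKM, fragments scaled by transcript length and by library depth, so levels may be set side by side between genes. Fragment numbers implied by the deposited bounds ran from 67 to 9687 per synthetase gene in the refed KR library and 174 to 21349 in its fasted counterpart, and from 120 to 21921 in the refed WT library and 208 to 26762 in its fasted counterpart. Relative to fasted WT the depth was 0.418 in refed KR, 1.01 in fasted KR and 0.683 in refed WT, so the refed libraries were the shallower in both genotypes. Islet hormone and beta-cell genes were present in all libraries, except that Ins2 had no usable value in fasted KR. Some of their levels differed widely. Ins1 had an FPKM of 12196 in refed and 7966 in fasted KR islets, and of 3498 in refed and 4320 in fasted WT islets. Slc2a2 had 158 in refed and 85.4 in fasted KR islets, and 108 in refed and 47.3 in fasted WT islets. Gcg varied less, from 21258 in fasted WT to 26161 in refed WT. Of 8 measured acinar genes 1 to 3 reached an FPKM of 1 per library, and 3 of 4 adipocyte genes, Adipoq, Plin1 and Lep, were at 0 in each. The remaining adipocyte gene, Fabp4, had 0.85 in refed and 1.58 in fasted KR islets, and 3.38 in refed and 5.06 in fasted WT islets. The 5 endothelial genes sum to an FPKM of 5.36 in refed and 9.94 in fasted KR islets, and to 6.64 in refed and 16.0 in fasted WT islets. The 5 fibroblast and stellate genes sum to 26.1 in refed and 31.3 in fasted KR islets, and to 20.2 in refed and 31.9 in fasted WT islets. None of these 10 genes was at 0 in any library. For 5 macrophage genes, again with none at 0, the sums are 179 in refed and 245 in fasted KR islets, and 197 in refed and 251 in fasted WT islets. These 3 sums were lower after refeeding in both genotypes, although within the fibroblast and stellate list Acta2 was higher. The 8 acinar genes with a value sum to 61.3 in refed and 41.0 in fasted KR islets, and to 48.5 in refed and 35.3 in fasted WT islets, with 1, 1, 3 and 4 of them at 0 in the same order, and nearly all of each sum is Cela1. The 5 duct genes sum to 533 in refed and 474 in fasted KR islets, and to 591 in refed and 500.04 in fasted WT islets, mostly from Krt7. The duct sum was thus higher after refeeding like the acinar sum, although some members were lower. These were Sox9 in both genotypes, and Spp1 and Cftr in WT. In the acinar list they were Cpb1, Pnlip and Cel in KR, and Cela2a and Cel in WT, all under an FPKM of 1. The part of these lists in the synthetase changes was not tested.

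Refeeding was accompanied by lower levels of most cytosolic synthetase genes, led by those for tyrosine, methionine, cysteine, isoleucine and valine, which stood near or under 0.5 times their fasted level. In whole pooled islets fewer cells of a type and less RNA per cell cannot be told apart. Of the 20 cytosolic genes 13 fell after refeeding, 4 rose and 3 did not pass the test. The test is limma on log2(FPKM + 1) over 11953 genes with genotype in the model, and a gene passes at a Benjamini-Hochberg adjusted p under 0.05. Across all tested genes 29.2% fell and 27.7% rose, which is the share against which these counts stand. The median fitted log2 change of the 20 genes was -0.54, against -0.01 over all genes tested. At least 2-fold lower were 5 of the 20 in the KR pair and the same number in the WT pair, against 1.75% and 2.4% of all genes, and 0 were at least 2-fold higher in either pair, against 0.577% and 1.11%. Summed over the 20 genes, FPKM was 1121 in refed and 1590 in fasted KR islets, and 1195 in refed and 1786 in fasted WT islets. When low values were not filtered, limma passed 0 of the 36 synthetase genes and 0 of all genes, beside 23 of the 36 at an unadjusted p under 0.05. With limma-voom on the fragments implied by the bounds of the filtered genes, 28 of the 36 and 62.3% of all genes passed. In the filtered limma fit 28 of the 36 and 62.3% of all genes had an unadjusted p under 0.05. Both refed libraries lay below both fasted libraries in 13 cytosolic and 5 mitochondrial genes, a pattern seen in 38.8% of all genes, and above them in 3 and 4 genes, as in 36.9% of all genes.

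**Figure D1:**
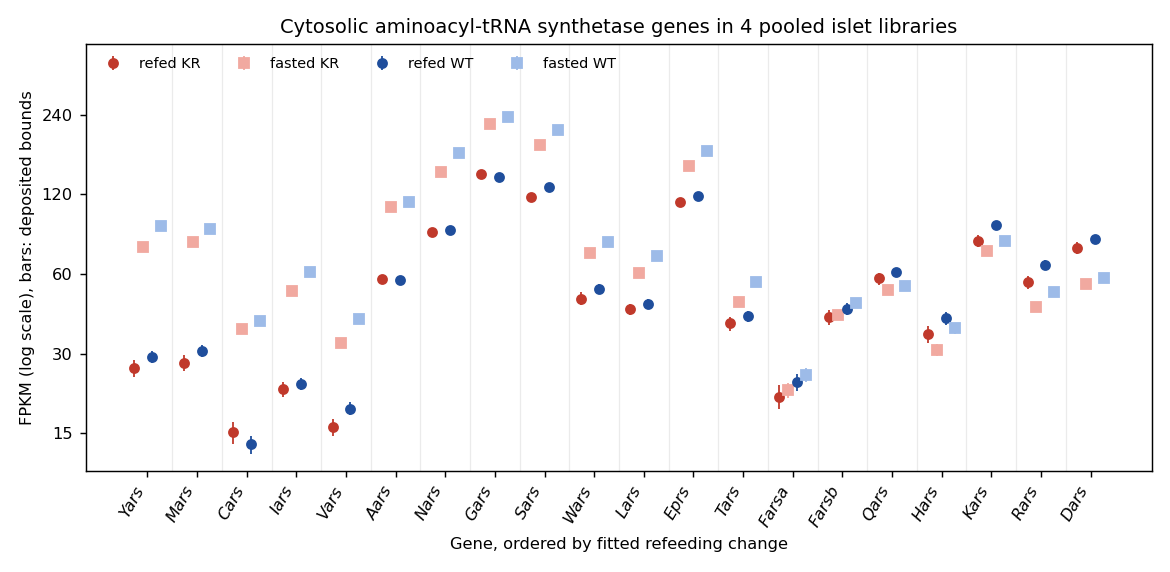
FPKM (vertical log axis) of the 20 cytosolic synthetase genes in each pooled library, ordered by the fitted refeeding change, with the deposited bounds as bars. In the 13 genes from Yars to Tars both refed libraries lie below both fasted libraries, while Dars, Rars and Qars have both refed libraries above.

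Yars, which encodes tyrosyl-tRNA synthetase (chromosome 4, 128867039 to 128896851 in mm9), had an FPKM of 26.5 in refed and 75.9 in fasted KR islets, and of 29.1 in refed and 90.8 in fasted WT islets. Both refed libraries lay far below both fasted ones. The fitted change was -1.55 ± 0.06 on the log2 scale (adjusted p = 1.71e-06), a fold of 0.342. Here and below, the value after ± is the SE of the limma fit, which borrows from a prior shared across genes. Among the cytosolic genes Yars ranked 16 by level in both refed libraries, against 7 in fasted KR and 6 in fasted WT. Its locus overlaps C77080 by 30 bases, whose reads cannot be assigned without knowing the strand.

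Mars encodes the methionyl enzyme, which also charges the initiator transfer RNA (chromosome 10, 126733277 to 126748842). Its FPKM was 27.7 in refed and 79.4 in fasted KR islets, and 30.7 in refed and 89.1 in fasted WT islets, again with no overlap between the states. Its log2 change was -1.496 ± 0.06 (adjusted p = 1.65e-06). Its locus overlaps that of Ddit3, the gene of the stress factor CHOP, by 68 bases, and Ddit3 itself fell by 2.85 ± 0.09. Whether strand was used in counting is not given in the sources used here, so reads in these 68 bases cannot be assigned and the value of Mars carries that uncertainty.

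Cars, the cysteinyl enzyme gene (chromosome 7, 150743135 to 150785995), was the least abundant cytosolic member after refeeding. It had an FPKM of 15.1 in refed and 37.2 in fasted KR islets, and of 13.6 in refed and 39.7 in fasted WT islets. The fitted change was -1.36 ± 0.08 (adjusted p = 5.63e-06). Iars, which serves isoleucine (chromosome 13, 49777499 to 49829636), had 22.0 in refed and 51.7 in fasted KR islets, and 23.0 in refed and 61.0 in fasted WT islets, and fell by 1.28 ± 0.07 (adjusted p = 4.74e-06). Vars, which serves valine (chromosome 17, 35137852 to 35153274), had 15.8 in refed and 33.0 in fasted KR islets, and 18.6 in refed and 40.5 in fasted WT islets, and fell by 1.05 ± 0.07 (adjusted p = 9.56e-06). In these 3 genes each refed library stood below each fasted library, as in Yars and Mars, and these are the 5 genes that were at least 2-fold lower in both pairs.

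A second tier of cytosolic genes fell by less than 2-fold. Aars, for alanine, had an FPKM of 57.5 in refed and 107 in fasted KR islets, and of 57.1 in refed and 112 in fasted WT islets, a fitted change of -0.92 ± 0.06 (adjusted p = 9.56e-06). The locus of Aars overlaps Exosc6 by 532 bases, whose reads cannot be assigned without strand. Nars, which charges asparagine, had 86.3 in refed and 146 in fasted KR islets, and 88.2 in refed and 173 in fasted WT islets, and fell by 0.86 ± 0.07 (adjusted p = 2.36e-05). Both genes separate the states without overlap.

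Gars makes glycyl-tRNA synthetase for cytosol and mitochondria from a single gene, and it was the most abundant cytosolic member in every library. It had an FPKM of 143 in refed and 222 in fasted KR islets, and of 140 in refed and 236 in fasted WT islets, and fell by 0.69 ± 0.06 (adjusted p = 3.39e-05). Sars, which provides seryl-tRNA and, through it, the precursor of selenocysteine, had 117 in refed and 184 in fasted KR islets, and 128 in refed and 211 in fasted WT islets, and fell by 0.68 ± 0.05 (adjusted p = 2.85e-05). Although both fell, Gars and Sars ranked first and second in all 4 libraries. Wars, the tryptophanyl enzyme gene, which interferon also induces, had 48.4 in refed and 71.7 in fasted KR islets, and 52.8 in refed and 79.5 in fasted WT islets. Its fitted change was -0.57 ± 0.06 (adjusted p = 8.83e-05). The states did not overlap in any of these 3 genes.

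Lars, for leucine, had an FPKM of 44.1 in refed and 60.4 in fasted KR islets, and of 46.4 in refed and 70.3 in fasted WT islets, a fitted change of -0.52 ± 0.06 (adjusted p = 0.000226). Eprs, the fused glutamyl and prolyl enzyme, had 113 in refed and 154 in fasted KR islets, and 118 in refed and 176 in fasted WT islets, a change of -0.51 ± 0.06 (adjusted p = 0.000157). Tars, for threonine, had the smallest fall that passed, with 39.0 in refed and 47.2 in fasted KR islets, and 41.6 in refed and 55.8 in fasted WT islets, and a fitted change of -0.34 ± 0.07 (adjusted p = 0.00222). In all 3 the refed libraries again lay below the fasted ones.

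Dars, Rars, Kars and Qars went the other way. Dars, the aspartyl enzyme gene (chromosome 1, 130260284 to 130313993), had an FPKM of 75.2 in refed and 55.1 in fasted KR islets, and of 81.6 in refed and 58.1 in fasted WT islets. It rose by 0.46 ± 0.06 (adjusted p = 0.000249). Rars, for arginine, had 55.8 in refed and 44.8 in fasted KR islets, and 65.2 in refed and 51.4 in fasted WT islets, and rose by 0.32 ± 0.06 (adjusted p = 0.00184). In Dars and Rars both refed libraries lay above both fasted ones. Kars, which like Gars serves cytosol and mitochondria, had 80.0 in refed and 73.1 in fasted KR islets, and 92.2 in refed and 80.2 in fasted WT islets. Its rise of 0.16 ± 0.06 passed narrowly (adjusted p = 0.039), and its refed KR value lies just below its fasted WT value. Qars, for glutamine, rose by 0.16 ± 0.06 (adjusted p = 0.0466), with 57.7 in refed and 52.1 in fasted KR islets, and 61.0 in refed and 54.0 in fasted WT islets. Kars and Qars did not pass in the fit without a mean-variance trend, in which 2 cytosolic genes rose. The 3 cytosolic genes that did not pass were Hars, for histidine, with a fitted value of 0.16 ± 0.06 (adjusted p = 0.0575), and Farsa and Farsb, the subunits of the phenylalanyl enzyme, at -0.09 ± 0.07 and -0.05 ± 0.06.

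The multi-synthetase complex, an assembly of cytosolic synthetases on scaffold proteins, held genes of both directions. Of its 8 synthetase genes Mars, Iars, Lars and Eprs fell, and Dars, Rars, Kars and Qars rose, with a median of -0.18. Outside the complex are 12 cytosolic genes, of which 9 fell, 0 rose and 3 did not pass the test, and their median was -0.69. As for the 20 genes together, these counts stand against 29.2% of all genes that fell and 27.7% that rose, and the difference between the complex and the rest was not tested. Among the scaffold genes, Aimp1 had an FPKM of 65.1 in refed and 101 in fasted KR islets, and of 70.3 in refed and 116 in fasted WT islets, and fell by 0.67 ± 0.06 (adjusted p = 4.17e-05). Aimp2 had 29.7 in refed and 25.0 in fasted KR islets, and 30.7 in refed and 25.4 in fasted WT islets, and rose by 0.25 ± 0.06 (adjusted p = 0.00978). Eef1e1, the remaining scaffold gene, had a change of -0.18 ± 0.08 that did not pass (adjusted p = 0.0887). By catalytic fold, 7 of 9 class I genes fell and 2 rose, at a median of -1.05. Among 10 class II genes there were 5 that fell, 2 that rose and 3 short of the threshold, at a median of -0.21. Eprs, which holds a domain of each class, is in neither count, and whether the classes differ was not tested.

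The mitochondrial synthetase genes had a lower median level than the cytosolic ones, although single genes such as Lars2, Iars2 and Rars2 stood above some cytosolic genes, and their fitted changes, from -0.72 to 0.30, lay closer to 0 than the cytosolic range of -1.55 to 0.46, a difference that was not tested. Their median FPKM was 9.27 in refed and 9.48 in fasted KR islets, and 9.23 in refed and 10.01 in fasted WT islets, whereas the cytosolic median was 46.3 in refed and 57.8 in fasted KR islets, and 49.6 in refed and 65.6 in fasted WT islets. Of the 16 genes 4 fell after refeeding, 4 rose and 8 did not pass, against 29.2% of all genes that fell and 27.7% that rose. Cytosolic and mitochondrial genes together, 25 of 36 passed in either direction, against 56.9% of all genes. The median fitted change of the 16 was -0.02. In neither pair was any of the 16 at least 2-fold apart. Of all genes, 1.75% were that much lower and 0.577% higher in the KR pair, and 2.4% and 1.11% in the WT pair. Without Lars2 their summed FPKM was 165 in refed and 160 in fasted KR islets, and 171 in refed and 172 in fasted WT islets.

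**Figure D2:**
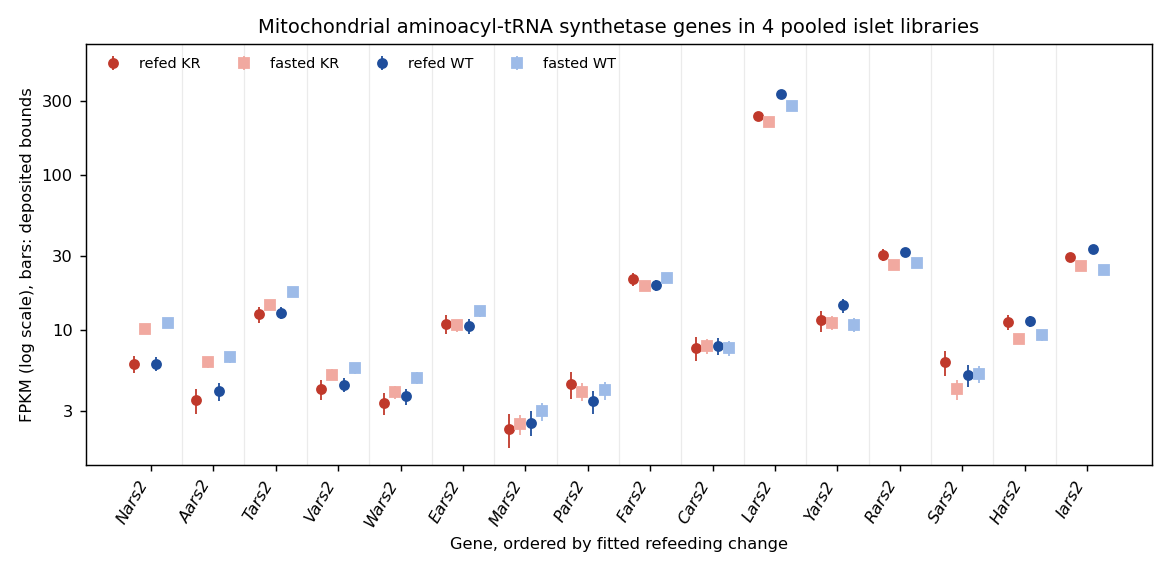
FPKM (vertical log axis) of the 16 mitochondrial synthetase genes in each pooled library, ordered by the fitted refeeding change, with the deposited bounds as bars. Nars2 and Aars2 have both refed libraries below both fasted ones, Lars2 stands above all others at 220 to 334, and the bounds of Mars2, Pars2 and Sars2 are wide.

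Nars2, the mitochondrial asparaginyl enzyme gene (chromosome 7, 104100037 to 104213267), fell the most among them. Its FPKM was 6.04 in refed and 10.2 in fasted KR islets, and 6.05 in refed and 11.1 in fasted WT islets, a fitted change of -0.72 ± 0.08 (adjusted p = 0.000145). Aars2, for alanine (chromosome 17, 45643790 to 45657792), had 3.50 in refed and 6.18 in fasted KR islets, and 4.01 in refed and 6.66 in fasted WT islets, a change of -0.64 ± 0.09 (adjusted p = 0.000503). Both genes separate the states. Tars2, for threonine, had 12.6 in refed and 14.5 in fasted KR islets, and 12.9 in refed and 17.5 in fasted WT islets, and fell by 0.30 ± 0.08 (adjusted p = 0.012). Vars2, for valine, had 4.15 in refed and 5.14 in fasted KR islets, and 4.42 in refed and 5.64 in fasted WT islets, and fell by 0.27 ± 0.09 (adjusted p = 0.0327). For all 4 genes the cytosolic enzyme of the same amino acid fell as well.

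Hars2, the mitochondrial histidyl enzyme gene, had an FPKM of 11.2 in refed and 8.76 in fasted KR islets, and of 11.4 in refed and 9.24 in fasted WT islets, and rose by 0.30 ± 0.08 (adjusted p = 0.00938). It lies 74 bases from Hars on chromosome 18. Iars2, for isoleucine, had 29.5 in refed and 25.8 in fasted KR islets, and 33.2 in refed and 24.6 in fasted WT islets, and rose by 0.30 ± 0.08 (adjusted p = 0.00824). The locus of Iars2 overlaps those of Rab3gap2, Mir194-1 and Mir215, the largest of these overlaps being 111 bases, with the same uncertainty. Rars2, for arginine, had 30.6 in refed and 26.3 in fasted KR islets, and 32.0 in refed and 26.9 in fasted WT islets, and rose by 0.23 ± 0.06 (adjusted p = 0.0148). The refed libraries of these 3 genes lie above the fasted ones. Lars2, for leucine (chromosome 9, 123276058 to 123371782), had 241 in refed and 220 in fasted KR islets, and 334 in refed and 279 in fasted WT islets. It rose by 0.20 ± 0.06 (adjusted p = 0.0159, and not past the threshold without a mean-variance trend), but its refed KR library lies below its fasted WT library.

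The remaining 8 mitochondrial genes had fitted changes between -0.25 in Wars2 and 0.23 in Sars2. Yars2, the partner of Yars, had an FPKM of 11.5 in refed and 11.1 in fasted KR islets, and of 14.4 in refed and 10.8 in fasted WT islets (0.22 ± 0.09, adjusted p = 0.0763). Cars2, the partner of Cars, had 7.64 in refed and 7.84 in fasted KR islets, and 7.89 in refed and 7.65 in fasted WT islets (0.00 ± 0.08, adjusted p = 0.976). Mars2, the least abundant of the 36, had 2.29 in refed and 2.46 in fasted KR islets, and 2.51 in refed and 2.98 in fasted WT islets (-0.13 ± 0.12, adjusted p = 0.382). These 3 partners of genes that fell by more than 2-fold thus moved by under 0.25 on the fitted log2 scale. Iars and Vars also fell by more than 2-fold, and their partners Iars2 and Vars2 passed, at 0.30 and -0.27. Wars2, for tryptophan, had 3.37 in refed and 3.95 in fasted KR islets, and 3.71 in refed and 4.89 in fasted WT islets (-0.25 ± 0.10, adjusted p = 0.0637). Ears2, for glutamate, had 10.9 in refed and 10.7 in fasted KR islets, and 10.6 in refed and 13.2 in fasted WT islets (-0.14 ± 0.09, adjusted p = 0.239). Pars2, for proline, had 4.48 in refed and 3.99 in fasted KR islets, and 3.46 in refed and 4.09 in fasted WT islets (-0.03 ± 0.11, adjusted p = 0.852). Wars2 and Yars2 separate the states without overlap although they did not pass, whereas Ears2 and Pars2 do not separate them. Sars2, for serine, had 6.19 in refed and 4.14 in fasted KR islets, and 5.07 in refed and 5.20 in fasted WT islets (0.23 ± 0.13, adjusted p = 0.153). Its refed level was thus above the fasted one in KR and close to it in WT. Fars2, for phenylalanine, had a fitted value of -0.01 ± 0.08.

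Set side by side for the same amino acid, the cytosolic gene had the more negative refeeding change in 16 of 17 pairs. The exception was Rars with Rars2. Eprs is counted with Ears2 and with Pars2, and Fars2 with Farsa and with Farsb. For the threonine and phenylalanine pairs the difference was small, from -0.07 to -0.04, and did not hold in WT alone. There the FPKM ratio of cytosolic to mitochondrial gene was higher after refeeding, for threonine 3.23 refed against 3.19 fasted. With limma-voom Tars2 fell more than Tars, at -0.41 against -0.36. In 4 pairs the fitted changes lay more than 1 apart on the log2 scale: by -1.76 for tyrosine, -1.59 for isoleucine, -1.37 for methionine and -1.36 for cysteine. For isoleucine the order of the levels turned over. The FPKM of Iars was 0.746 times that of Iars2 in refed KR, against 2.01 times in fasted KR, and 0.693 times in refed WT, against 2.48 times in fasted WT. For tyrosine the cytosolic transcript stood at 2.30 times the mitochondrial in refed KR, against 6.83 times in fasted KR, and at 2.02 times in refed WT, against 8.41 times in fasted WT. For asparagine, alanine and threonine the pair moved together, with differences of -0.13, -0.28 and -0.04. These differences between 2 genes have no test of their own, and members share the same libraries. They are a description of these 4 pools.

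**Figure D3:**
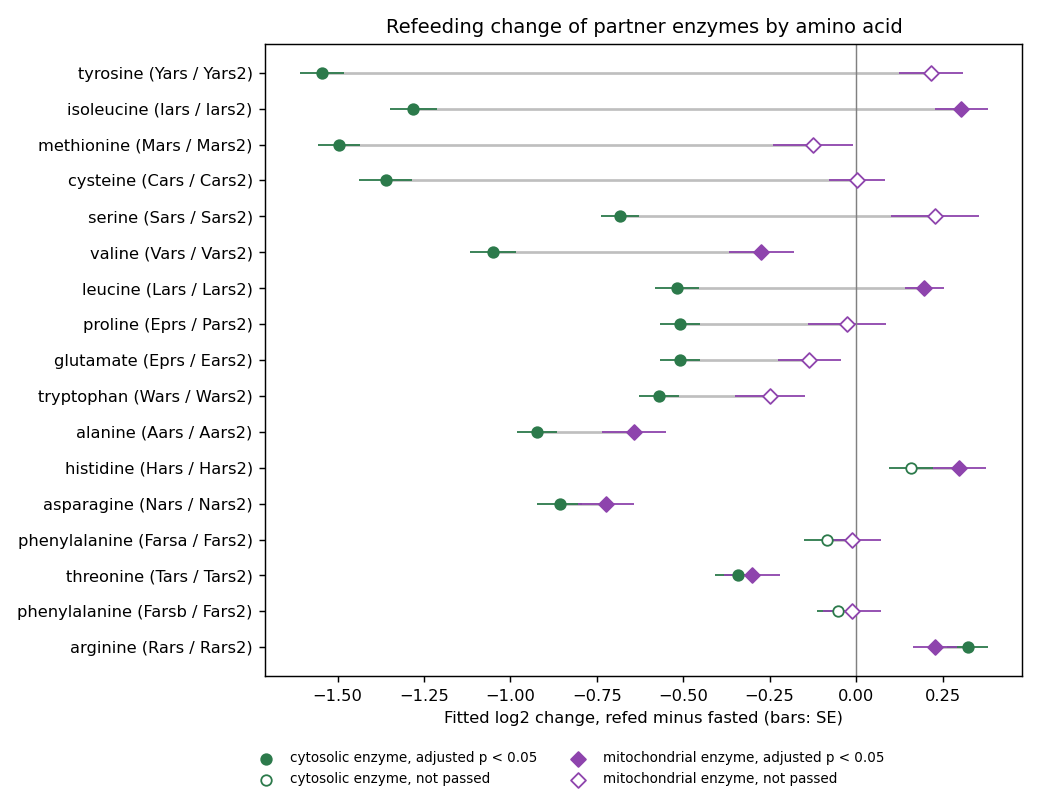
Fitted log2 change, refed minus fasted (horizontal axis, with the SE of the fit), of the cytosolic and the mitochondrial enzyme gene for each amino acid. That SE borrows from a prior shared across genes. Filled symbols passed at an adjusted p under 0.05. The gap is widest for tyrosine, isoleucine, methionine and cysteine, and arginine is the pair whose cytosolic gene lies to the right.

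The order of levels among the cytosolic genes differed more between feeding states than between genotypes. Across the 20 genes Spearman's rho of the levels was 0.74 between refed and fasted KR and 0.67 between refed and fasted WT, against 0.99 between KR and WT in either state. Across the 16 mitochondrial genes it was 0.94 between refed and fasted in both genotypes. Genes are not independent replicates, and these values describe the libraries. The most abundant cytosolic gene stood 9.48 times above the least abundant in refed KR and 10.1 times in fasted KR, and 10.3 times in refed WT and 9.44 times in fasted WT. The lowest place was taken by Cars in both refed libraries and by Farsa in both fasted ones.

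Genes that act before and after charging form a list of 19 measured charging partners, of which 5 fell, 5 rose and 9 showed no change that passed. These shares are close to the 29.2% and 27.7% of all genes that fell and rose, and the median change was -0.05. Xpot, which exports transfer RNA from the nucleus, had an FPKM of 21.3 in refed and 52.5 in fasted KR islets, and of 22.2 in refed and 54.2 in fasted WT islets, and fell by 1.26 ± 0.06 (adjusted p = 3.98e-06). It was the single partner at least 2-fold apart in a pair. Besides Xpot and Aimp1, Ptrh2, Aarsd1 and Eef1a2 fell. Those that rose were Aimp2, Dtd1, Eef1a1, Trnt1, which adds the terminal CCA that accepts the amino acid, by 0.53 ± 0.07, and Tufm, the mitochondrial elongation factor that delivers charged transfer RNA, by 0.33 ± 0.08. Of the genes Pet112l, Qrsl1 and Gatc, whose products convert glutamate on mitochondrial glutaminyl transfer RNA, 0 passed.

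The amino acid response list, 21 genes around Atf4, was measured alongside. After refeeding 20 of them fell and 0 rose, against 29.2% and 27.7% of all genes, at a median of -1.498, and Slc7a11 did not pass (adjusted p = 0.0505). Atf4 had an FPKM of 163 in refed and 438 in fasted KR islets, and of 153 in refed and 460 in fasted WT islets, and fell by 1.51 ± 0.06 (adjusted p = 1.65e-06). At least 2-fold lower were 13 of the 21 in the KR pair and 14 in the WT pair, against 1.75% and 2.4% of all genes. The 13 were the transcription factor genes Atf4, Atf3, Atf5, Ddit3 and Cebpb, the transporter genes Slc7a5 and Slc3a2, the folate enzyme genes Mthfd2 and Shmt2, and Trib3, Chac1, Sesn2 and Eif4ebp1, and Stc2 joined them in the WT pair. Trib3 had 22.3 in refed and 201 in fasted KR islets, and 21.6 in refed and 245 in fasted WT islets, a gap seen in both genotypes. Asns, which makes asparagine, had 172 in refed and 211 in fasted KR islets, and 193 in refed and 229 in fasted WT islets, and fell by 0.27 ± 0.05, less than Yars, Mars, Cars, Iars or Vars by fitted value. The deepest falls among the cytosolic synthetase genes, in Yars and Mars, were thus of about the size of that in Atf4 itself, and smaller than that in the pseudokinase gene Trib3, at -3.28 ± 0.08.

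**Figure D4:**
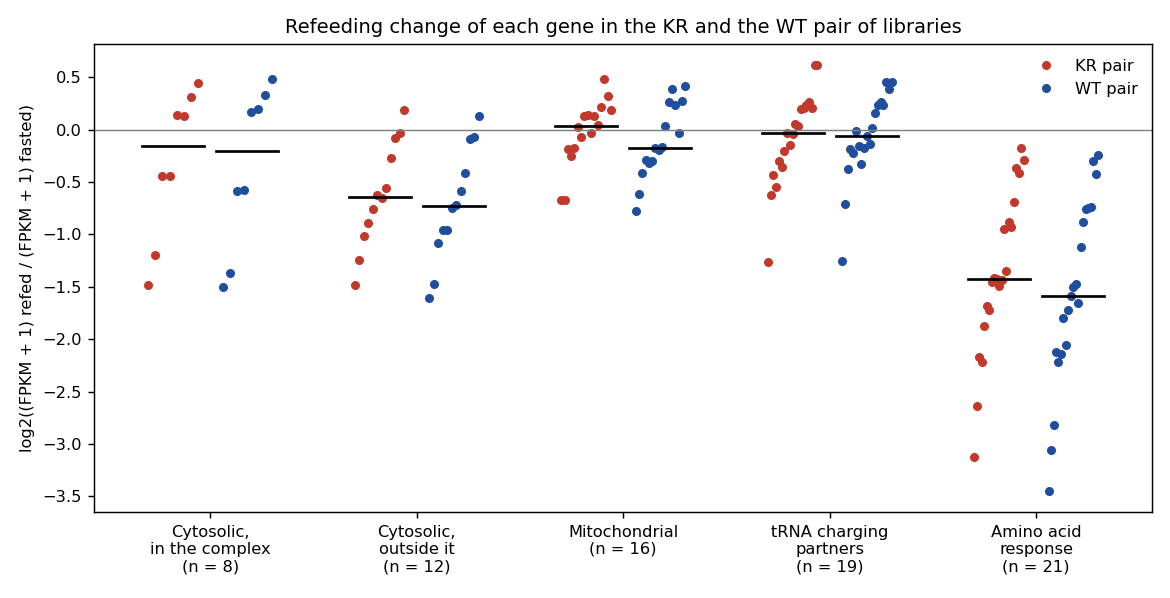
Log2 ratio of refed to fasted (FPKM + 1) for each gene in the KR pair and in the WT pair of libraries, by group, with black lines at the medians. Cytosolic genes in the complex split into those above and those below 0, those outside it lie mostly below 0, mitochondrial genes lie around 0 and the amino acid response genes all lie below 0.

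The refeeding changes had the same direction in KR and WT for all 20 cytosolic genes. In each of the 13 cytosolic genes that fell, the fall was smaller in the KR pair, by 0.02 in Mars to 0.23 in Cars on the log2 scale, with a median of 0.12. Over all 3488 genes that fell, 57.5% had the smaller fall in KR and the median difference was 0.03. After rescaling by the median of ratios the fall was again smaller in KR in 13 of the 13, with a median of 0.15, and in 64.5% of all genes that fell, with a median of 0.055. The 4 cytosolic genes that rose also did so less in KR, by 0.03 to 0.07, which after that rescaling held for 2 of the 4. Of the mitochondrial genes 3 of the 4 that fell and 3 of the 4 that rose, or 2 after it, changed less in KR. Over all 3308 genes that rose, 69.0% rose less in KR, and 61.0% after rescaling. Hars, which did not pass, had the larger change in KR, at 0.19 against 0.13 in WT. The difference of responses between genotypes was not tested, because with 1 library per group a model with that term has no error left.

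Between KR and WT islets, the comparison on the FoxO1 allele, Lars2 was the single synthetase gene that passed. Lars2 was lower in KR in both states, at an FPKM of 241 in refed KR against 334 in refed WT, and of 220 in fasted KR against 279 in fasted WT. Both KR libraries lie below both WT libraries. The fitted difference was -0.40 ± 0.06 (adjusted p = 0.0131). Of all tested genes 0.661% were lower and 0.602% higher in KR, or 1.26% in either direction. Leucyl-tRNA in mitochondria depends on this enzyme. The level of Lars2 lay far above the mitochondrial medians of 9.23 to 10.01, and whether all its reads stem from this transcript was not tested. Lars2 lost its call without a mean-variance trend, at an adjusted p of 0.181, and with no filter on low values, at 0.575.

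None of the 20 cytosolic genes passed between genotypes with limma, beside 10 at an unadjusted p under 0.05, a level that 16.4% of all genes reached, and 5 that were lower in KR with limma-voom on the implied fragments, namely Vars, Hars, Rars, Sars and Yars. In that limma-voom fit 4.84% of all genes were lower in KR. The fitted limma differences of the 20 were small but mostly of the same sign, with 19 below 0, against 7740 of all 11953 genes. Their median was -0.15 against -0.04 over all genes. After rescaling by the median of ratios 17 of 20 were below 0, with a median of -0.10 against -0.003. In the fasted pair all 20 were lower in KR, against 7139 of the 11953, with a median log2 ratio of -0.19 against -0.03 over all genes. In the refed pair 17 of 20 were lower, against 7642 of the 11953, with a median of -0.11 against -0.05. Vars had the lowest cytosolic value at -0.25 ± 0.07 (adjusted p = 0.118), followed by Hars at -0.23 ± 0.06 (adjusted p = 0.141). Hars had 35.6 in refed KR and 40.9 in refed WT, and 31.1 in fasted KR and 37.4 in fasted WT. Both KR libraries lie below both WT libraries in Hars, Kars, Farsa and Farsb and, among the mitochondrial genes, in Lars2 and Mars2, a pattern found in 11.3% of all genes. The opposite pattern, found in 5.43% of all genes, was held by 0 of the 36. Of the remaining 15 mitochondrial genes 0 passed with limma or limma-voom and 0 had an unadjusted p under 0.05, with differences from -0.18 in Wars2 to 0.13 in Pars2. At least 2-fold apart between genotypes were 0 of the 36 genes, against 0.167% higher and 0.201% lower of all genes in the refed pair and 0.134% higher and 0.109% lower in the fasted pair.

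**Figure D5:**
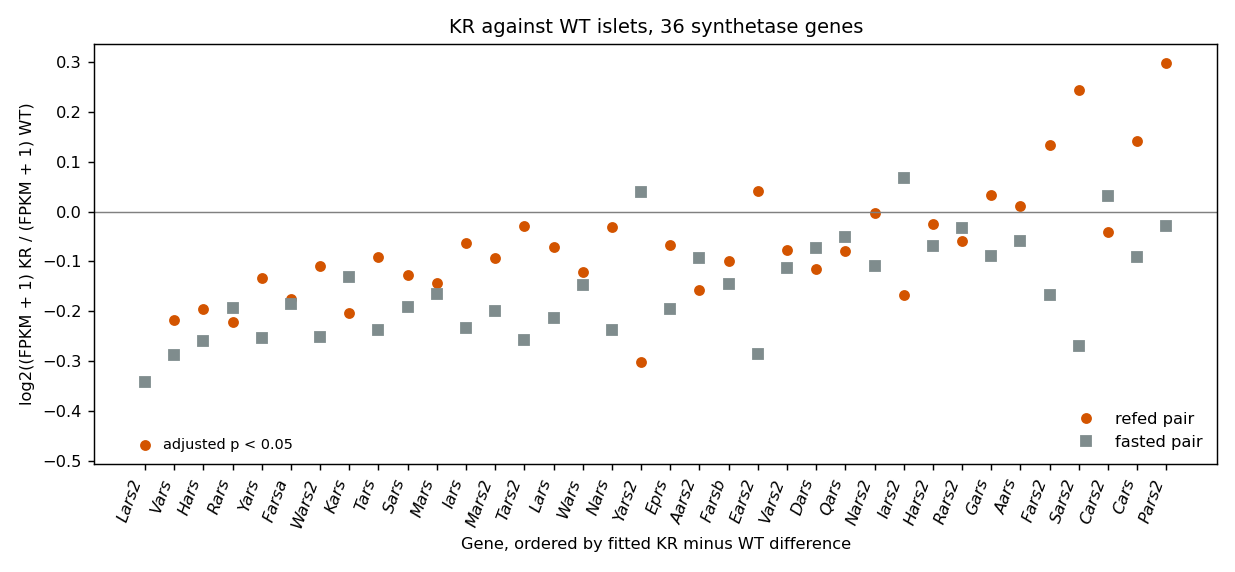
Log2 ratio of KR to WT (FPKM + 1) for the 36 synthetase genes in the refed pair (circles) and the fasted pair (squares) of libraries, ordered by the fitted difference. Lars2, at the left, is the gene that passed, most ratios lie between 0 and -0.3, and the pairs differ in sign in several mitochondrial genes at the right.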

How the data were processed

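Per the labels' protocols, poly-A RNA of pooled islets was prepared with an Illumina TruSeq RNA kit. Per the submitters' processing notes, bcl2fastq 1.8.4 and TopHat2 2.0.4 were used with mouse build mm9. The deposited values are FPKM with bounds and a status per gene, per the file headers; no source used here names the program or annotation behind them. Rows of a symbol were summed, and 23046 symbols had the status OK in all 4 libraries. Fragments were implied from the squared ratio of FPKM to its standard error, taken from the bounds, which cover counting error only. Gene loci are written as counted from 1. The filter kept symbols whose FPKM averaged 1 or more, and R 4.3.3 with limma 3.58.1 compared them on log2(FPKM + 1), using a mean-variance trend and an additive model of feeding state and genotype. A fold change on that scale understates the change of low genes. This model leaves 1 residual degree of freedom per gene, counts the interaction as error and borrows a prior of 7.58 such degrees. The p-values thus set each effect against the interaction and that shared prior, from which the SE also comes. Neither measures variation between mice or between pools of the same group. The model was also run on simulated data with noise drawn from its own fitted prior and no interaction. That run cannot show how it behaves where the interaction counts as error. Pairs of libraries were compared by ratio without a test. Alternatives were a pseudocount of 0.1, no filter, a filter at an FPKM of 5, median-of-ratios scaling, no trend, a robust prior and limma-voom. Synthetase genes given with all values are those that passed or were at least 2-fold apart in a pair, and the partners of these for the same amino acid; of the other lists, the complex subunits, Atf4, Asns and genes at least 2-fold apart are named by rule. The other charging partners and Slc7a11 were named after their values were seen. The members and lists were chosen with earlier results of these data known.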

Additional observations from a re-analysis of the deposited data

Results flagged for a closer look

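In 5 mitochondrial genes the refeeding change had opposite signs in KR and WT, which with 1 library per group is a difference that was not tested. The log2 change in KR minus that in WT was 0.51 in Sars2 (0.48 in KR and -0.03 in WT), 0.33 in Pars2 (0.14 and -0.19), 0.32 in Ears2 (0.03 and -0.30), 0.30 in Fars2 (0.14 and -0.16) and -0.072 in Cars2 (-0.03 and 0.04). Sars2 had an FPKM of 6.19 in refed KR (bounds 5.03 to 7.34) and 4.14 in fasted KR (3.53 to 4.74), and 5.07 in refed WT (4.26 to 5.89) and 5.20 in fasted WT (4.51 to 5.88). It rests on 115 implied fragments in refed and 186 in fasted KR, and on 154 in refed and 231 in fasted WT.

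The difference between KR and WT changed sign between the refed and the fasted pair in the same 5 genes, by the same amounts, and in 5 others, again untested. The log2 ratio in the refed pair minus that in the fasted pair was 0.23 in Cars (0.14 refed and -0.09 fasted), 0.12 in Gars (0.03 and -0.09), 0.069 in Aars (0.01 and -0.06), -0.23 in Iars2 (-0.17 and 0.07) and -0.34 in Yars2 (-0.30 and 0.04).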

How the results depend on the processing

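With no filter on low values, 0 cytosolic and 0 mitochondrial genes passed as lower or as higher after refeeding, and 0 mitochondrial genes as lower in KR. Without a mean-variance trend 2 cytosolic genes passed as higher after refeeding, in place of 4, and 0 mitochondrial genes as lower in KR. With limma-voom 5 cytosolic genes passed as lower in KR, in place of 0. The other counts of cytosolic and mitochondrial genes stayed within 1.5 times. The cause of these changes was not tested. The filter at 5 leaves 12 mitochondrial genes, with a median refeeding change of 0.10. Of the 25 genes that passed after refeeding, 25 also passed with a pseudocount of 0.1, with median-of-ratios scaling, with a robust prior and with limma-voom, 24 with the filter at 5, which leaves out Vars2, and 22 without trend. Fitted values near 0 changed sign in Pars2 after refeeding with limma-voom (0.018), and between genotypes with median-of-ratios scaling in Aars (0.018), Gars (0.013), Cars2 (0.033), Fars2 (0.022) and Sars2 (0.022), and with limma-voom in Cars (-0.021) and Cars2 (0.0073). None of these passed. Over all genes 6796 passed after refeeding and 151 between genotypes, against 0 and 0 with no filter, 6407 and 5 without trend, 7449 and 869 with limma-voom, 191 between genotypes with a pseudocount of 0.1, 228 with a robust prior and 252 with the filter at 5. No paired analysis was possible because each group has 1 library and the labels carry no replicate numbers. Leaving out a library leaves the model no residual degrees of freedom, so it was not done. Depth limits the low mitochondrial genes: Mars2 rests on 67 implied fragments in refed KR.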
